A study of Mus musculus with 4 samples.

Results

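The replication fork and nucleotide supply genes are 46 mouse genes whose products copy DNA, assemble chromatin behind the fork or make its building blocks. They were chosen by gene name among the non-control probes of the arrays. Each gene was read from 1 probe, the one with the highest mean log2 signal. All 46 of the listed genes had a probe (71 probes in all), and all 46 were well above background on all 4 arrays. They stood among 13924 genes that passed the filter on dim probes.

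The study measured RNA from wild type primary mouse embryonic fibroblasts (MEFs) of the C57BL/6 strain on Agilent 1-colour arrays. Exportin-5, the protein encoded by Xpo5, carries precursor microRNAs from the nucleus to the cytoplasm. The series title sets the comparison in cells re-entering the cell cycle. One group of 2 samples received a negative control siRNA and the other group of 2 an siRNA against Exportin-5, each at 60 nM. Every sample was held for 12 h after the first transfection, kept in 0.2% serum for 48 h, then given 20% serum and a second transfection for 24 h before RNA was taken. No sample was left unstimulated, so the values compare the siRNAs at a single time after refeeding and not before and after it. The labels do not give the siRNA sequence or the number of embryos. The p-values therefore measure the spread between these samples.

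At a replication fork, the CDC45-MCM-GINS helicase opens the duplex. DNA polymerase alpha with its primase starts each strand, and polymerases epsilon and delta extend the leading and lagging strands. The PCNA ring, placed on DNA by the clamp loader RFC, holds the polymerases and the flap nuclease, ligase and histone chaperones that follow. Ribonucleotide reductase, thymidylate synthase and salvage kinases supply deoxynucleotides, and many genes of this machinery are transcribed under E2F control as serum-fed cells enter S phase.

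Probe signals are given as the log2 processed signal minus that array's own 75th percentile. A value of 0 marks the percentile, and a step of 1 is a doubling. Differences are Xpo5 siRNA minus control siRNA on that log2 scale, with the SE from limma (n = 2 per group). Arrays numbered 1 were read as experiment 1 and arrays numbered 2 as experiment 2 of the independent experiments that the series text mentions. Probes of different genes differ in their own brightness, so levels are compared only within a gene. The sums of cell type markers given below add probes of different genes. Each sum can be compared between arrays, but sums of different lists do not give amounts of cells.

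The targeted gene was checked first. Xpo5 read 1.31 and 1.26 on the control arrays and -1.95 and -1.93 on the Xpo5 siRNA arrays. Both knockdown arrays were far below both control arrays. The difference was -3.23 ± 0.12, which left 10.7% of the control signal (limma adjusted p = 0.0107). That call was lost without Xpo5 siRNA replicate 1 (adjusted p = 0.063), with no filter on dim probes (0.168), with each probe tested on its own (0.0517), with the mean of the probes (0.148) and with the normexp background correction (0.595). With normexp without spots of uneven local background the call was kept (limma adjusted p = 0.0012). The arrays had 62.4% to 65.0% of spots well above background and 0 saturated spots. The fibroblast markers fixed for the analysis were all kept (11 of 11). Each of the 2 slides held 1 array of each group.

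The probes that read 3 of the genes are shown here because they show what the arrays measured. For Pcna and Pold1 the deposited position spans more bases than the oligonucleotide, which is 60 bases long. The Pcna probe lies at chr2:132075420-132075557 on the minus strand of mm9, a span of 138 bases. The first Pold1 probe lies at chr7:51788621-51788751 and the second at chr7:51788221-51788589, both on the minus strand, with spans of 131 and 369 bases. The Wdhd1 probe lies at chr14:47865052-47865111 on the minus strand, with no such gap. No letters are marked by capitals.
Pcna: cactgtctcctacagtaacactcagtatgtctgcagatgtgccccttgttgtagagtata
Pold1, first probe: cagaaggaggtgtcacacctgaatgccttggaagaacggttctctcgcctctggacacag
Pold1, second probe: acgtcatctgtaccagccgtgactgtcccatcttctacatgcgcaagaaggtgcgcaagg
Wdhd1: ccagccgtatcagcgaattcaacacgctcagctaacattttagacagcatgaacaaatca

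The signal of nearly all 46 genes was lower with Xpo5 siRNA. The fitted difference was below 0 for 45 genes and ranged from -0.83 for Wdhd1 to 0.13 for Rfc5. The median difference was -0.42, against 0.01 over all 13924 genes. With normexp the medians were -1.09 and -0.16, and with normexp without spots of uneven local background -0.34 and 0.02. With 2 arrays per group, 0 of the 46 genes passed limma's adjusted threshold of 0.05. The smallest adjusted p was 0.166 and belonged to Cdc7. Over all genes 3 passed (0.0215%). At an unadjusted p under 0.05, 23 of the 46 were lower, against 5.8% of all genes in that direction. Counted in either direction, it was 0 with the normexp background correction, 12 with the slide as a block and 18 with no filter on dim probes. It was 25 with normexp without spots of uneven local background, 25 with a variance trend and 30 with the replicate number as a block. The median difference of the 46 was -0.315 without Xpo5 siRNA replicate 2 and -0.47 without Xpo5 siRNA replicate 1. A difference of -0.5 or below was found for 12 of the 46 and for 4.26% of all genes. Of the 46 genes, 29 (63.0%) lay among the lowest 10% of all genes by difference, and 17 among the lowest 5%. In RNA of a whole culture, fewer cells that express a gene and less of its RNA per cell cannot be told apart.

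The lower signal recurred in both experiments. In 42 of the 46 genes the Xpo5 siRNA array was lower in each experiment, against 35.2% of all genes. In 42 genes both Xpo5 siRNA arrays were below both control arrays, against 22.9% of all genes. The median difference was -0.31 in experiment 1 and -0.46 in experiment 2, and 37 of the 46 genes had the lower difference in experiment 2. In each experiment the control and Xpo5 siRNA arrays lay on different slides. A gap between the experiments therefore cannot be told apart from one between the slides. Arrays on the same slide gave medians of -0.35 on slide 1 and -0.48 on slide 2. Without Xpo5 siRNA replicate 2 the median was -0.32. With the replicate number as a block, 3 of the 46 genes were called lower, against 1.38% of all genes. These were Wdhd1 (limma adjusted p = 0.0455), Rfc1 (0.0497) and Chaf1b (0.0497). Deviations of same-numbered arrays from their group means correlated at r = 0.559 over the 46 genes, which are not independent replicates.

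**Figure D1:**
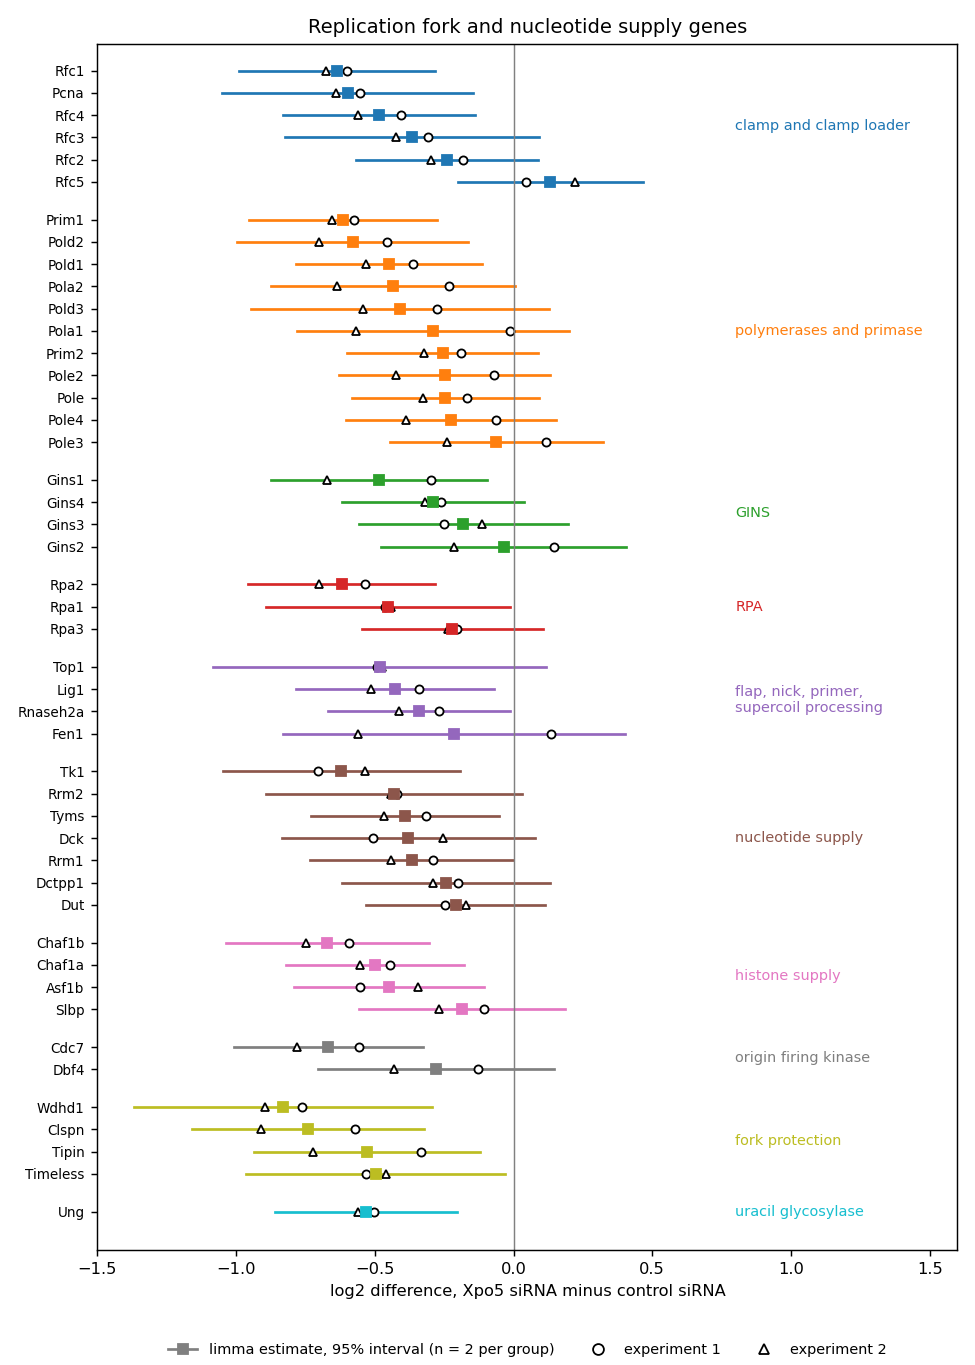
Log2 difference between Xpo5 siRNA and control siRNA for each of the 46 genes, grouped by role. Squares with bars give the limma estimate and its 95% interval (n = 2 per group), circles experiment 1 and triangles experiment 2. The estimate is below 0 for 45 genes and above 0 for Rfc5.

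Markers of another cell type were higher. All 13 macrophage markers were higher with Xpo5 siRNA, with a median difference of 0.64. Without a block 0 of them passed the adjusted threshold (smallest limma adjusted p = 0.149). With the replicate block 4 of them were called higher, as were 2.99% of all genes. Both Xpo5 siRNA arrays were above both control arrays for 9 of the 13, and for 3440 of 13918 genes with values on all 4 arrays. Arrays on the same slide gave macrophage marker medians of 1.08 on slide 1 and 0.24 on slide 2. Laptm5 had a difference of 0.87 ± 0.14, Aif1 of 1.08 ± 0.23 and Adgre1 of 1.02 ± 0.26. Their summed linear signal, in units of each array's 75th percentile, was 43.1 to 60.6 with control siRNA and 72.5 to 85.2 with Xpo5 siRNA. The 11 fibroblast markers summed to 1590 to 1750 and 1750 to 1900, and their median difference was 0.02. Of the listed epithelial, endothelial, neural and skeletal muscle markers, 4 of 6, 3 of 5, 4 of 6 and 2 of 6 passed the filter. Their sums were 4.88 to 6.11, 0.823 to 0.881, 8.14 to 8.97 and 16.8 to 21.9 with control siRNA, and 4.86 to 5.87, 0.991 to 1.02, 7.44 to 7.51 and 18.8 to 23.9 with Xpo5 siRNA. With the replicate block, the endothelial marker Kdr and the neural markers Nefl, Map2 and S100b were called higher. The endothelial marker Emcn and the neural marker Tubb3 were lower, at -0.34 ± 0.15 and -0.38 ± 0.13, without overlap of the groups and without a call. Tubb3 had the brightest probe of the neural markers and weighed most in their sum. Krt18, with a difference of -0.01 ± 0.18, did so among the epithelial markers. Krt5 was lower without overlap, at -0.92 ± 0.34, and Krt8 lower with overlap, at -0.62 ± 0.36. Krt14 was higher with overlap, at 0.19 ± 0.19, and no epithelial marker was called. All 13 macrophage markers were well above background on all 4 arrays. The part of these markers in the lower replication signals was not tested.

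The sliding clamp and its loader (6 genes) had a median difference of -0.43. The groups did not overlap for all 6, in 5 genes with Xpo5 siRNA lower and in 1 with it higher. Over all genes the groups did not overlap with Xpo5 siRNA lower in 22.9%, and with it higher in 3440 of 13918. Pcna encodes the ring that encircles DNA behind the polymerase. Pcna read 5.33 and 5.09 on the control arrays and 4.77 and 4.45 on the Xpo5 siRNA arrays. Both Xpo5 siRNA arrays were below both control arrays, and the difference was -0.60 ± 0.18 (limma adjusted p = 0.244), or 66.1% of control.

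Rfc1, the large subunit of the loader, read 3.23 and 3.14 on the control arrays and 2.63 and 2.46 on the Xpo5 siRNA arrays. The control arrays lay close together, and the difference was -0.64 ± 0.14 (limma adjusted p = 0.179, and 0.0497 with the replicate block). Rfc4, a small subunit, read 2.73 and 2.72 on the control arrays against 2.33 and 2.15. Its difference was -0.48 ± 0.13 (adjusted p = 0.230). Rfc5, another small subunit, was the exception among the 46. It read 3.12 and 3.04 on the control arrays and 3.16 and 3.27 on the Xpo5 siRNA arrays, so that both Xpo5 siRNA arrays were the higher ones. The difference of 0.13 ± 0.13 was close to its SE (adjusted p = 0.672), and its sign turned under normexp, to -1.16. The other 2 loader genes, Rfc2 and Rfc3, had differences of -0.24 and -0.37 with groups that did not overlap.

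The 11 genes of the replicative polymerases and primase were all lower with Xpo5 siRNA, with a median of -0.29, and 3 of them had an unadjusted p under 0.05. By complex, the median was -0.36 over 4 genes of polymerase alpha and primase, -0.45 over 3 of polymerase delta and -0.24 over 4 of polymerase epsilon. Prim1 encodes the catalytic primase subunit that lays down RNA primers. It read 3.33 and 3.28 on the control arrays and 2.76 and 2.62 on the Xpo5 siRNA arrays. The groups stood apart by far more than either pair of arrays differed, with a difference of -0.61 ± 0.13 (limma adjusted p = 0.178).

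Pold2, an accessory subunit of polymerase delta, read 0.82 and 1.15 on the control arrays and 0.37 and 0.44 on the Xpo5 siRNA arrays. Its control arrays were spread more widely, and the difference was -0.58 ± 0.16 (limma adjusted p = 0.232). Pold1 is the catalytic subunit of the same enzyme. It read 3.06 and 3.09 on the control arrays and 2.69 and 2.56 on the Xpo5 siRNA arrays, a difference of -0.45 ± 0.13 (adjusted p = 0.240). The second of the Pold1 probes printed above gave -0.44. The other 8 polymerase and primase genes ranged from -0.43 to -0.06, with 74.0% to 95.8% of the control signal. In 7 of them both Xpo5 siRNA arrays were below both control arrays, against 22.9% of all genes. Their smallest adjusted p was 0.345. All 4 genes of polymerase epsilon lay in the upper part of that range, from -0.25 to -0.06, and 0 of these 4 had an unadjusted p under 0.05.

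**Figure D2:**
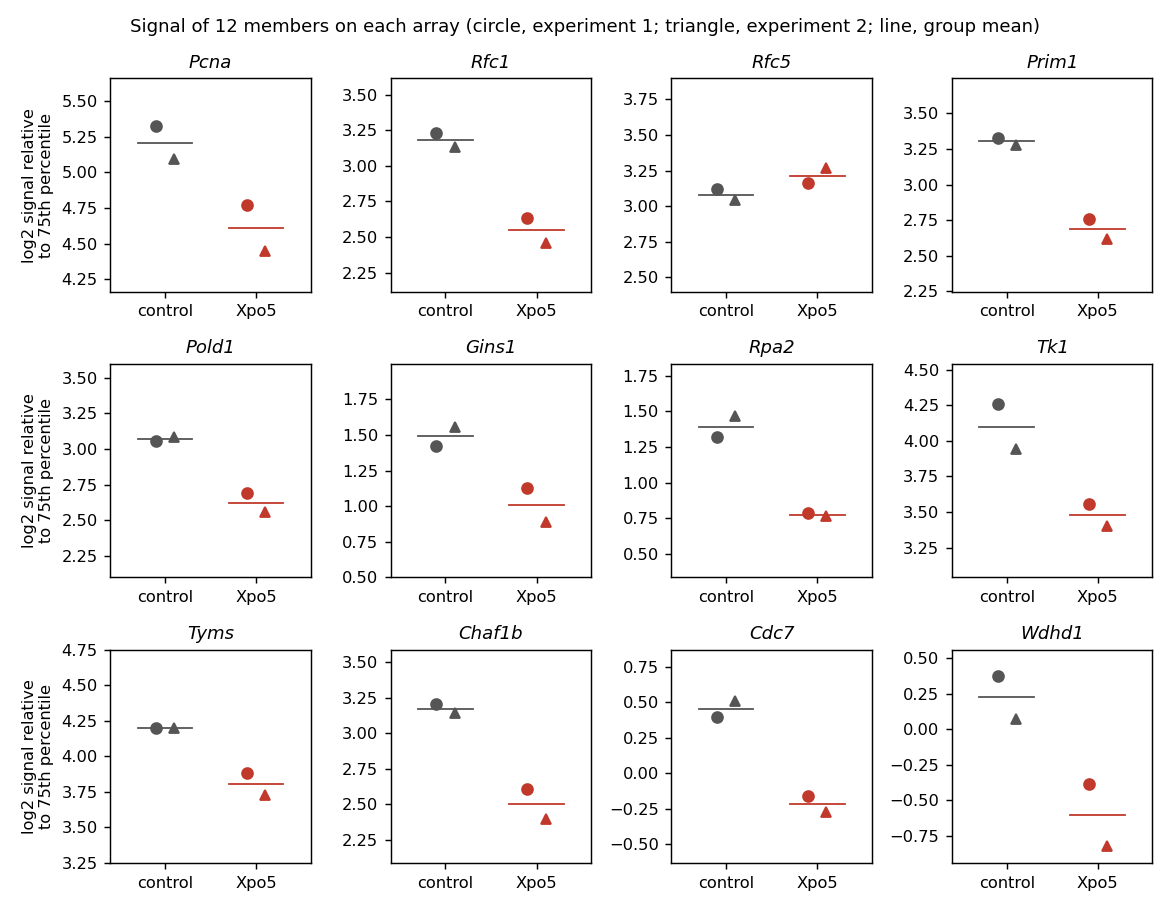
Log2 signal of 12 genes on each of the 4 arrays, relative to the array's 75th percentile. Circles are experiment 1, triangles experiment 2 and lines group means, and every panel spans the same range of log2 units. Both Xpo5 siRNA arrays lie below both control arrays in 11 of the panels and above them for Rfc5.

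GINS is the complex of 4 small subunits that joins CDC45 and the MCM ring in the active helicase. Its genes had a median difference of -0.24, and 3 of 4 were lower in both experiments. Gins1 read 1.43 and 1.56 on the control arrays and 1.13 and 0.88 on the Xpo5 siRNA arrays, a difference of -0.48 ± 0.15 (limma adjusted p = 0.261). Gins4 read 1.88 and 1.98 against 1.62 and 1.66, and its difference was -0.29 ± 0.13 (adjusted p = 0.386). Gins3 read -0.08 and -0.31 against -0.33 and -0.43, so that its closest arrays were almost level. Its difference of -0.18 ± 0.15 was close to its SE (adjusted p = 0.610). Gins2 had the difference nearest to 0 among the 46, at -0.04.

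RPA coats single-stranded DNA exposed at the fork, and its 3 genes were all lower, with a median of -0.45. Rpa2, the middle subunit, read 1.32 and 1.46 on the control arrays and 0.79 and 0.76 on the Xpo5 siRNA arrays. Its knockdown arrays nearly coincided, and the difference was -0.62 ± 0.13 (limma adjusted p = 0.177). Rpa1, the large subunit, read 3.52 and 3.78 against 3.06 and 3.33. The arrays of each group differed from each other by more than for Rpa2, and the difference was -0.45 ± 0.17 (adjusted p = 0.329). Rpa3, the small subunit, read 2.15 and 2.09 against 1.94 and 1.85, a difference of -0.22 ± 0.13 (adjusted p = 0.487).

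Flap, nick, primer and supercoil processing was represented by 4 genes with a median of -0.38. Lig1 encodes the ligase that seals Okazaki fragments. It read 4.08 and 4.05 on the control arrays and 3.74 and 3.54 on the Xpo5 siRNA arrays, a difference of -0.43 ± 0.14 (limma adjusted p = 0.277). Rnaseh2a, the catalytic subunit of the RNase H2 that removes ribonucleotides from DNA, read 1.71 and 1.76 against 1.44 and 1.35. Its difference was -0.34 ± 0.13 (adjusted p = 0.327). Top1, the topoisomerase that relaxes supercoils ahead of the fork, read 2.48 and 2.02 against 1.99 and 1.55. The higher Xpo5 siRNA array lay just under the lower control array, although the difference was near equal in both experiments (-0.49 and -0.47). Its estimate was -0.48 ± 0.23 (adjusted p = 0.420). Fen1, the flap nuclease, had a difference of -0.21 and overlapping groups.

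The 7 nucleotide supply genes were lower in both experiments without exception, with a median of -0.38 and a range of -0.62 to -0.21. Tk1, the S-phase thymidine kinase, read 4.26 and 3.94 on the control arrays and 3.56 and 3.40 on the Xpo5 siRNA arrays. Its groups did not overlap, and the difference was -0.62 ± 0.17 (limma adjusted p = 0.222). Tyms makes thymidylate from deoxyuridylate. It read 4.20 on both control arrays, and 3.88 and 3.73 on the Xpo5 siRNA arrays, a difference of -0.39 ± 0.13 (adjusted p = 0.288).

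Rrm1, the large subunit of ribonucleotide reductase, read 4.66 and 4.59 on the control arrays and 4.37 and 4.15 on the Xpo5 siRNA arrays. Its difference was -0.37 ± 0.14 (limma adjusted p = 0.339). The other 4 genes were Rrm2, Dck, Dctpp1 and Dut. Rrm2 encodes the small reductase subunit, Dck salvages deoxycytidine, and the last pair break down unwanted nucleotide triphosphates. Their differences ranged from -0.43 to -0.21, with 74.2% to 86.5% of the control signal. In all 4 both Xpo5 siRNA arrays were below both control arrays, against 22.9% of all genes. The uracil glycosylase gene Ung, which removes uracil from DNA, read 0.79 and 0.75 on the control arrays and 0.29 and 0.19 on the Xpo5 siRNA arrays. Both pairs of arrays were tight, and the difference was -0.53 ± 0.13 (adjusted p = 0.200).

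Histone supply to new DNA was represented by 4 genes with a median of -0.47. Chaf1b and Chaf1a encode the large subunits of CAF-1, the chaperone that deposits histones at PCNA. Chaf1b read 3.20 and 3.14 on the control arrays and 2.61 and 2.40 on the Xpo5 siRNA arrays. The difference was -0.67 ± 0.14 (limma adjusted p = 0.177, and 0.0497 with the replicate block). Chaf1a read 2.50 and 2.55 against 2.05 and 1.99, and its difference was -0.50 ± 0.13 (adjusted p = 0.208). Asf1b, the chaperone that hands histones to CAF-1, read 3.52 and 3.37 against 2.97 and 3.02. Its groups stood apart, with a difference of -0.45 ± 0.13 (adjusted p = 0.247). Slbp, which binds the stem-loop of histone messages, had a smaller difference of -0.19 without overlap.

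The kinase that fires origins is made of the catalytic subunit Cdc7 and its activator Dbf4. Cdc7 read 0.40 and 0.51 on the control arrays and -0.16 and -0.27 on the Xpo5 siRNA arrays. Its difference of -0.67 ± 0.13 had the smallest limma adjusted p of the 46 genes. The further kept Cdc7 probes, both dimmer, gave -0.62 and -0.19. Dbf4 read 0.25 and 0.59 against 0.12 and 0.16, so that the lower control array was close to the Xpo5 siRNA arrays. Its difference was -0.28 ± 0.17 (adjusted p = 0.496).

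Fork protection genes had the lowest median of the roles, -0.63 over 4 genes, and all 4 had an unadjusted p under 0.05. Wdhd1 encodes the adaptor that links polymerase alpha to the helicase. It read 0.38 and 0.07 on the control arrays and -0.38 and -0.82 on the Xpo5 siRNA arrays. The gap between the groups exceeded the gap within either, and the difference was -0.83 ± 0.21, or 56.3% of control (limma adjusted p = 0.208, and 0.0455 with the replicate block). Only 0.991% of all genes had a difference as low or lower. A second Wdhd1 probe gave -0.54.

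Clspn encodes Claspin, which couples stalled forks to the checkpoint kinase Chk1. It read -1.23 on both control arrays and -1.80 and -2.14 on the Xpo5 siRNA arrays. The difference was -0.74 ± 0.16 (limma adjusted p = 0.179), and its sign turned under normexp, to 0.23. Tipin, which with Timeless travels with the fork, read 4.07 and 4.15 against 3.74 and 3.43. Both Xpo5 siRNA arrays were lower, by different amounts in the experiments (-0.33 and -0.72). The difference was -0.53 ± 0.16 (adjusted p = 0.250). Timeless itself had a difference of -0.50 and did not overlap.

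Set side by side, the role medians were -0.63 for fork protection, -0.47 for histone supply and for the origin firing kinase, -0.45 for RPA, -0.43 for the clamp and its loader, -0.38 for nucleotide supply and for flap, nick, primer and supercoil processing, -0.29 for the polymerases and primase and -0.24 for GINS. The loader alone had a median of -0.37. The ranges of many of these roles overlapped. Fork protection, from -0.83 to -0.50, lay wholly below GINS and below flap, nick, primer and supercoil processing. The lowest difference in each of those was -0.48. GINS ran from -0.48 to -0.04, the polymerases from -0.61 to -0.06 and nucleotide supply from -0.62 to -0.21. Differences between the roles were not tested.

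Other probes of the same genes gave the same direction. Of the 46 genes, 16 had more than 1 kept probe. Their 21 further probes were all below 0, from -0.62 to -0.01, with a median of -0.32.

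The experiments diverged for 3 genes, which are named after their values were seen. Fen1 differed by 0.13 in experiment 1 and -0.56 in experiment 2. Gins2 differed by 0.14 and -0.21, and Pole3, a histone-fold subunit of polymerase epsilon, by 0.12 and -0.24. Each value compares 1 array with 1 array on a different slide, so these divergences were not tested. Experiment and slide cannot be told apart in them. The lower of the Fen1 control arrays, in experiment 1, read 1.26, and the other read 1.91.

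**Figure D3:**
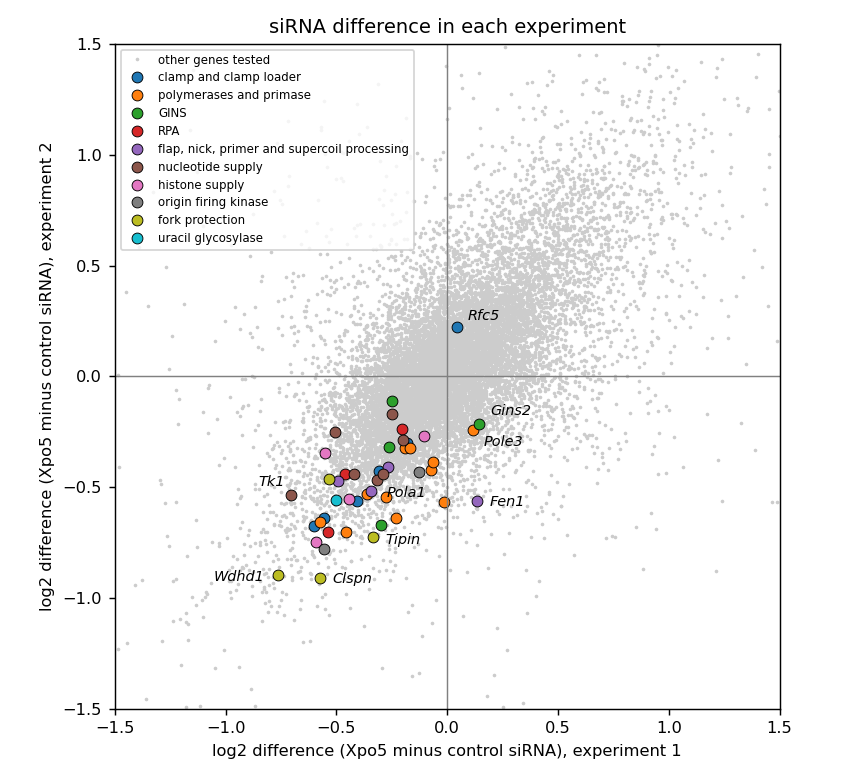
Log2 difference in experiment 1 (horizontal) and experiment 2 (vertical), coloured by role, with 13872 other genes in grey, of which 162 lie beyond the axes at 1.5. Of the 46 genes, 42 lie at the lower left, Rfc5 in the upper right, and Fen1, Gins2 and Pole3 in the lower right.

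Genes with related functions were described from lists of non-member genes, drawn up by function. The replicative helicase and licensing list (20 genes) had a median of -0.46, close to that of the 46 genes. All 20 were lower, 0 passed limma's adjusted threshold, 12 had an unadjusted p under 0.05 and 2 were called lower with the replicate block. Cdc6, the helicase loader, had a difference of -0.84 ± 0.16, the origin recognition subunit Orc6 of -0.58 ± 0.13 and Recql4 of -0.55 ± 0.13.

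The repair, translesion and mitochondrial polymerases lay closer to the median of all genes. Of 14 kept genes 9 were lower, the median was -0.11, and 0 passed the adjusted threshold or had an unadjusted p under 0.05. Polm, a polymerase of end joining, had a difference of 0.32 ± 0.14. Polq, another end-joining polymerase, had -0.29 ± 0.16 and Poldip2 -0.20 ± 0.12. The highest difference of the replicative polymerases was -0.06.

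Genes of de novo purine and pyrimidine synthesis and further deoxynucleotide steps (26) had a median of -0.22. Of these, 21 were lower, 0 passed the adjusted threshold, 3 were lower and 1 higher at an unadjusted p under 0.05, and 2 were called lower with the block. Shmt1, a serine hydroxymethyltransferase that supplies one-carbon units to Tyms, had a difference of -0.70 ± 0.13 (limma adjusted p = 0.0488 with the replicate block). Ctps2, a CTP synthase, had 0.52 ± 0.14. The 4 genes that salvage or turn over deoxynucleotides outside S phase had a median of 0.02, and 0 passed the adjusted threshold. Rrm2b, the reductase subunit used outside S phase, had -0.49 ± 0.15, Dguok 0.22 ± 0.13 and Samhd1 0.09 ± 0.17.

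Among 15 genes of clamp unloading, cohesion loading and fork processing, 12 were lower, with a median of -0.29, and 5 of them had an unadjusted p under 0.05. In this list 0 passed the adjusted threshold, and 2 were called lower with the block. The nuclease and helicase Dna2, which cuts long flaps, had the lowest difference at -1.18 ± 0.18 (limma adjusted p = 0.144, and 0.0436 with the replicate block). The nuclease Exo1 had -0.54 ± 0.14 and Dscc1, a subunit of an alternative clamp loader, -0.58 ± 0.16. Of 10 chromatin assembly genes 7 were lower, with a median of -0.28 and 0 past the adjusted threshold. The histone acetyltransferase Hat1 had -0.51 ± 0.14, and the chaperones Nasp and Asf1a had -0.37 ± 0.13 and -0.35 ± 0.13.

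**Figure D4:**
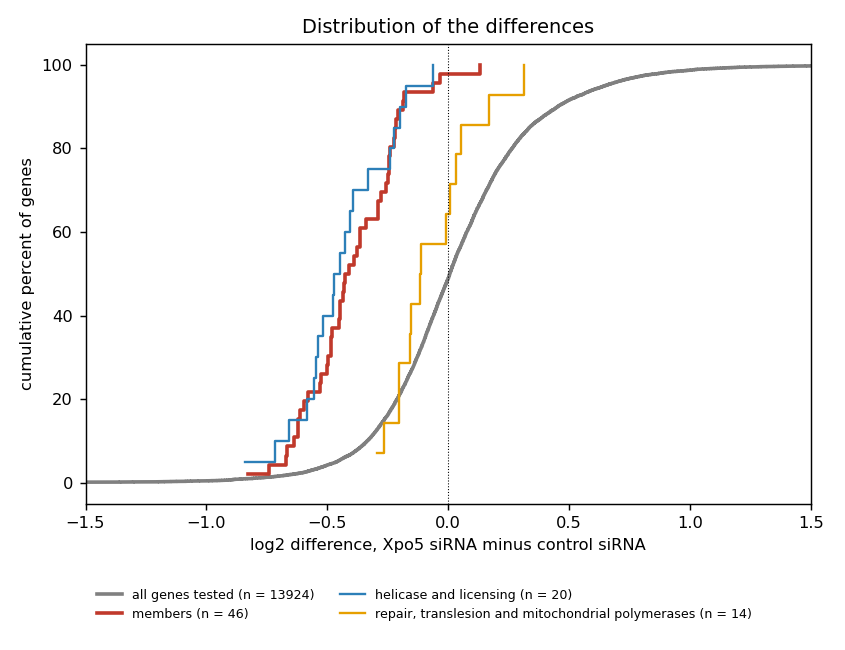
Cumulative percent of genes at or below each log2 difference for the 46 genes, 2 lists of related genes and all 13924 genes. The curve of the 46 genes crosses its median at -0.42 and runs beside that of the helicase and licensing list (-0.46), left of the repair polymerases (-0.11) and of all genes (0.01).

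Features that the choice by name did not use were also described for the 46 genes. They lie on 16 chromosomes, and 11 of them (23.9%) on chromosome 5, which holds 6.23% of all genes tested. Those 11 had a median difference of -0.37, and all genes of chromosome 5 had one of 0.01. The closest pair, Prim1 and Timeless, lies 0.215 Mb apart on chromosome 10 by mm9 probe positions, and no other pair is closer than 0.988 Mb.

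Windows of 300 bases around annotated start sites were read from RefSeq (GRCm38.p6) for 39 of the 46 genes. Gins1, Gins2, Gins4, Pole, Prim2, Rfc2 and Tipin had none in the table. An E2F octamer (TTTCCCGC, TTTCGCGC, TTTGCCGC or TTTGGCGC on either strand) was found in 9 of the 39 (23.1%), against 4.42% of 11024 tested genes with a window. By window, 10 of 45 held one (22.2%), against 3.66% of 14023 windows of the genes tested and 2.26% of all 32851 windows of that length. The pentamer CCAAT, searched on both strands, was in 46.2% of the 39 and 42.8% of tested genes. The hexamer TTTGAA of the cell cycle homology region, also on both strands, was in 17.9% and 14.6%. The 9 genes were Clspn, Gins3, Lig1, Pola1, Pold1, Pold3, Pole2, Pole4 and Rfc3. A match is a description of these letters and not of a bound site.

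The stretches of 60 bases below, in the direction of transcription, show octamers at different places in 4 of these genes, with the octamer in capitals. They lie at chr4:126556950-126557009 (plus strand), chr8:95633498-95633557 (plus), chrX:93632254-93632313 (minus) and chr5:151651179-151651238 (minus) of GRCm38.p6. Rfc3 holds 2 octamers in different orientation.
Clspn: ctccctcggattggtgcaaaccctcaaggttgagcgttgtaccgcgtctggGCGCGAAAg
Gins3: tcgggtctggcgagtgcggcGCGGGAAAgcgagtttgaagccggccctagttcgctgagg
Pola1: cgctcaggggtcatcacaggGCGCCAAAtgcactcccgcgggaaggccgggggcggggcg
Rfc3: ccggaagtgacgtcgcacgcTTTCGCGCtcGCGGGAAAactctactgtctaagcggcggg

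Differences with and without the octamer covered overlapping ranges. The 9 genes with it had a median of -0.37, with a range of -0.74 to -0.18. The 30 genes with a window and no octamer had a median of -0.45, with a range of -0.83 to 0.13. Both medians lay well below that of all genes. In experiment 1 they were -0.28 and -0.45, and in experiment 2 -0.52 and -0.47.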

How the data were processed

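RNA of 4 MEF samples, 2 per siRNA, was read on Agilent arrays with a single dye (Cy3), per the labels' protocols. The authors deposited the scanner output of Agilent Feature Extraction 10.5.1.1. Its processed signal is a linear intensity from which background has been subtracted, per the file headers. They also deposited a table of log2 values, used as an alternative. It equals the log2 processed signal after a shift that sets every array's median to 5.33 (99.7% to 99.8% of probes match within 0.001).

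The log2 processed signal was taken, spots flagged as outliers (77 to 134 of 43379 per array) were left out, spots were averaged per probe, and each array's 75th percentile over 41174 probes was subtracted. A probe was kept if either group had both its arrays well above background (25641 probes). Genes were named by RefSeq GRCm38.p6 (26792 probes by accession, 5125 by symbol, 929 by synonym, 8328 unnamed) and read from their brightest kept probe. Probe positions come from the file annotation (mm9). Groups were compared over 13924 genes in limma 3.58.1 (R 4.3.3; lmFit and eBayes, two-sided, Benjamini-Hochberg, threshold 0.05), tested on simulated data. Promoter motifs were counted in Python 3.11.15. The number of arrays limits the precision.

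The replicate number was taken to mark an independent experiment (2 per the series text), although the labels do not state that a number marks a shared experiment. Deviations of same-numbered arrays correlated at r = 0.452 over 13918 genes. Scan batches equalled slides.

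The genes, lists and tests were chosen with earlier results of these data known, so they carry no test of their own as a group. The text names up to 3 genes per role by unadjusted p, Pcna, genes called in either fit, genes above 0, Xpo5 and up to 3 genes per list; 1 gene of a list is not reported here. Genes beyond the rule were named after their values were seen. Alternatives changed the background correction (normexp, offset 50), scaling, probe filter, probe choice, naming, variance trend and blocks, left out each array, or used the deposited table. A planned search for PCNA-binding motifs in proteins was not done.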

Additional observations from a re-analysis of the deposited data

Results flagged for a closer look

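The siRNA difference ran in opposite directions in the experiments for 3 of the 46 genes. Fen1 differed by 0.1338 in experiment 1 and -0.5617 in experiment 2. Gins2 differed by 0.1447 and -0.2149. Pole3 differed by 0.117 and -0.2397. These divergences were not tested, because each experiment has 1 array per group. The arrays of an experiment lay on different slides, so experiment and slide cannot be told apart in these divergences. Opposite signs were found for 3909 of 13918 genes overall.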

How the results depend on the processing

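No named gene passed the adjusted threshold in the reported analysis, so staying on that side of it takes no account of changes in size. Of the 476 alternative values of the 28 named genes, 471 kept their direction and side of the threshold, 3 passed it (the replicate block) and 2 turned sign. Both of those came from normexp, where Rfc5 moved to -1.155 and Clspn to 0.226. The median of the 46 genes was -1.09 with normexp, -0.342 with normexp without spots of uneven local background, -0.524 with median scaling and -0.525 in the deposited table. Median scaling moved the median of all genes to -0.099. It shifts the difference of every gene by the same amount, as does the median shift of the deposited table. The median of the 46 relative to that of all genes therefore stayed at -0.425 with median scaling by construction, which is no separate check. Relative to the median of all genes, the median of the 46 was -0.927 with normexp, -0.365 with normexp without those spots and -0.383 with quantile normalization. Leaving out each array in turn gave -0.47 to -0.315. Of the 46 genes, 3 were called with the replicate block and 0 under each other alternative. Over all genes the 3 calls became 608 with the replicate block, 8 with median scaling, 8 in the deposited table, 1 with the filter on all 4 arrays, 1 with the mean of the probes, and 0 with normexp, no filter or each probe. They ranged from 0 to 26 with each array left out, where the lone array of its group was assumed to vary like the others. The causes were not tested. Signal over background limits the dimmest probes.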
